A study of Rattus norvegicus with 87 samples.

Results

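A set of 53 genes, of 17512 measured, was absent from some rats and abundant in others in brain tissue of Heterogeneous Stock (HS) rats, taken from the lateral habenula (LHb). Members were chosen on the measured values themselves. A gene entered when its deposited log2 value was exactly 0 in at least 8 rats and at least 7 in at least 8 other rats. A value is the log2 of the normalized count of a gene (reads scaled between rats) plus 1. Because the rule used the values of all rats, the shares of rats, the levels and the co-segregation below are descriptions with no test, while rat batch and sex were not used by the rule.

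The data are RNA-Seq of polyadenylated RNA from the LHb, a small epithalamic nucleus dissected from frozen sections, with both sides of a rat combined. All rats were outbred adults, group housed and without experience of drugs or behavioural tests, and the labels name no engineered allele. The study recorded a sex and a rat batch for each. Of 87 rats in the labels, 81 had values, 41 males and 40 females, and the other 6 had been removed by the authors. Batch 2 held 15 rats (11 males, 4 females), batch 3 held 22 (10 males, 12 females), batch 4 held 27 (12 males, 15 females) and batch 6 held 16 (8 males, 8 females). The only rat of batch 5, a female, is described but entered no test. What distinguished the batches is not stated in the labels.

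HS rats descend from inbred founder strains, so each chromosome is a mosaic of founder haplotypes and each rat carries its own combination. In such a population a gene copy can be intact on some founder haplotypes and deleted, silenced or diverged from the reference on others, and a gene on the Y chromosome is present in males alone. A transcript that differs strongly from the reference can also escape alignment, and where near-identical gene copies exist, software such as RSEM divides reads between them by estimation. A value of 0 in a table of this kind is therefore the absence of assigned reads, which need not be absence of the gene or of its transcript.

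The files name genes by Ensembl rat identifiers only, and 0 of the 17512 identifiers matched the reference tables, so members are given by identifier, and their functions, positions, families and sequences were not analysed here. The label of LHb was not checked against marker genes for the same reason. In bulk tissue, fewer cells of a type and less RNA per cell cannot be told apart. The scaled total lay between 16.2 and 20.2 M normalized counts per rat (median 17.1 M, where M is 1000000). For 62 rats the total before scaling could be recovered from the spacing of low values, and a value of 7 then rested on 39.9 to 278.5 reads. Between 296 and 1661 genes were at 0 in a rat (median 540), and 9 rats had over 1000 genes at 0. Without these 9 rats, 44 genes met the rule. Rat names are in alphabetical order within 3 successive stretches of columns, called column runs here, of 22, 12 and 47 rats. Batch and run nearly coincide: batch 2 was all in run 1, batches 4, 5 and 6 all in run 3, and batch 3 had 7, 12 and 3 rats in runs 1, 2 and 3.

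A gene is called on in a rat when its log2 value was at least 3.5, which is 10.3 normalized counts and midway between the cuts of the rule. The 53 members were on in 16 to 71 of the 81 rats, a share of 19.8% to 87.7% (median 61.7%), and 39 of them were on in more rats than they were off. The median level in the rats where a member was on ranged from 5.46 to 11.87 on the log2 scale, with a median of 7.73 over members. In 12 members it was at least 9 and in 20 it was under 7. The SD over rats was 2.13 to 5.87 for members (median 3.43), against a median of 0.32 for all genes of the table, as the rule requires.

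**Figure D1:**
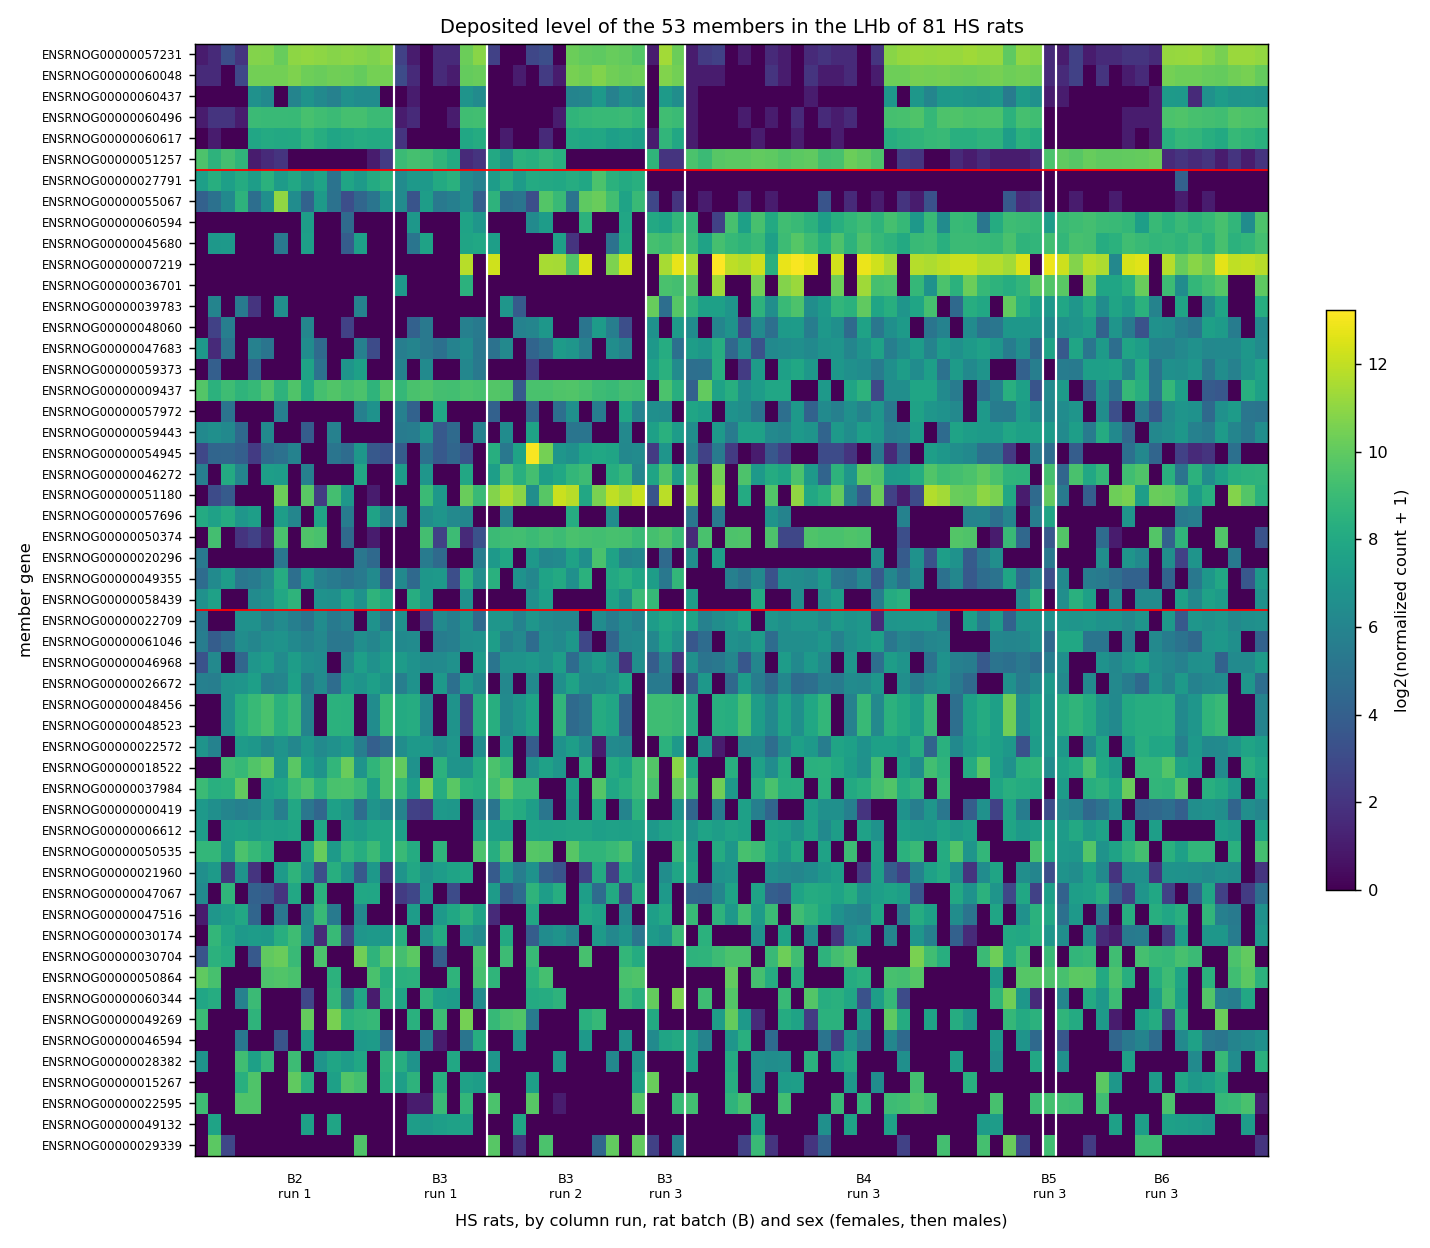
Deposited level, log2(normalized count + 1), of the 53 members (rows) in the 81 rats (columns), which are ordered by column run, rat batch and sex; white lines part the sets of rats, and red lines part the 6 members that differed between the sexes (top), the other 21 members that differed between rat batches (middle) and the rest. The top rows follow sex in every set of rats that holds both sexes, apart from 4 males in ENSRNOG00000060437, several middle rows turn on or off at the border of run 3, and the bottom rows are patchy in all sets.

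The members differed in how cleanly they switched. The number of rats strictly between 0 and 7 was 0 to 63 per member, with a median of 21. It was at most 5 in 12 members, which are called sharp here, and over 30 in 20 members. In 16 members every rat that was off was at exactly 0. The interval that held no rat, from the highest off value to the lowest on value, was 0.13 to 7.61 wide on the log2 scale (median 1.91) and exceeded 5 in 16 members. ENSRNOG00000022595 had the widest empty interval. It was on in 29 rats at 8.61 to 9.79, with an SD of 0.30 among them, and its highest value in the other 52 rats was 1.00.

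ENSRNOG00000050864 and ENSRNOG00000037984 had no rat between 0 and 7. ENSRNOG00000050864 was at 0 in 38 rats and at 7.29 to 10.03 in the other 43 (median 9.33). ENSRNOG00000037984 was at 0 in 18 rats and at 7.09 to 10.60 in the other 63 (median 8.49). ENSRNOG00000007219 reached the highest level of the members. It was at 0 in 33 rats, and its median was 11.87 in the 48 rats where it was on, which ranged from 6.17 to 13.24. ENSRNOG00000030704 was at 8.11 or more in all but 2 of its 48 on rats, and those 2 were at 3.70 and 3.91. ENSRNOG00000051180, among the 5 members with the highest median when on (10.09 in 55 rats), was not sharp, with 15 rats between 0 and 7.

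**Figure D2:**
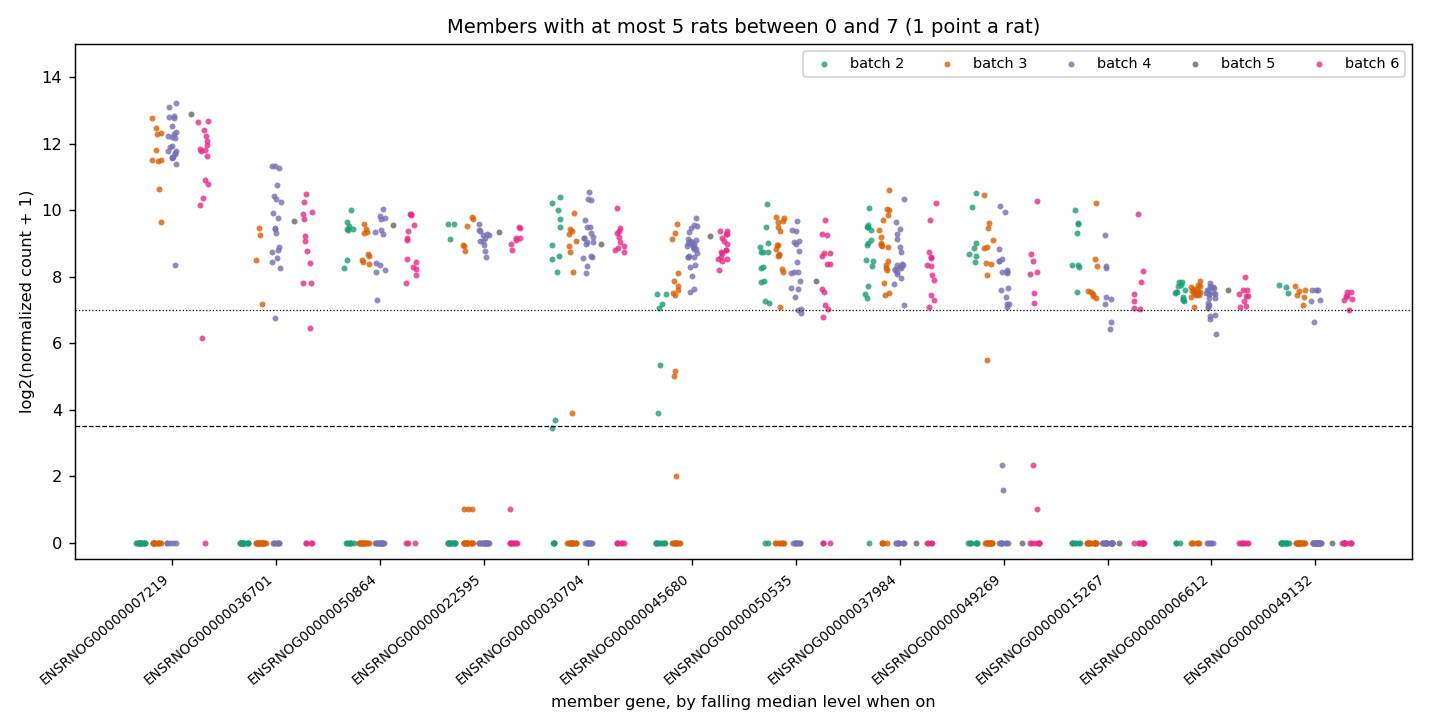
Level of the 12 sharp members in each of 81 rats (1 point a rat, coloured by rat batch), on the log2(normalized count + 1) scale, with the dashed line at 3.5 where a gene is called on and the dotted line at 7. Points gather at 0 and above about 7 with few between, ENSRNOG00000050864 and ENSRNOG00000037984 have none between, and batch 2 (green) has no on rat in ENSRNOG00000007219 and ENSRNOG00000036701.

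The state of 6 members followed sex, completely or nearly so. In the limma test adjusted for batch, with Benjamini-Hochberg adjustment over all genes, 5 of the 53 members were higher in males, against 0.0628% of all genes tested in that direction, and 1 was higher in females, against 0.0685%. In both directions together it was 6 of 53, against 0.131% of all genes. The rule favours genes with a wide spread, so these shares describe the selection. Fisher's exact test of presence also called these 6, against 0.394% of the 2028 genes with at least 8 rats on and 8 off.

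ENSRNOG00000057231 was at 9.68 to 11.40 in the 41 males (median 10.92) and at 0 to 3.17 in the 40 females (median 1.58). ENSRNOG00000060048 was at 10.09 to 10.76 in males (median 10.37, SD 0.16) and at 0 to 3.00 in females (median 1.00). Both were on in every male and in no female, and the sexes did not overlap. ENSRNOG00000060496 was at 8.49 to 9.63 in males and at most 2.00 in females, and ENSRNOG00000060617 was at 7.38 to 8.95 in males and at most 2.00 in females. These differences between males and females were 7.93 ± 0.11 (SE) to 9.35 ± 0.15 on the log2 scale (limma, adjusted p = 2.0e-71 to 3.0e-63, n = 80).

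ENSRNOG00000060437 was lower and incomplete. It was on in 37 of 41 males, where its median was 6.71, and in no female, where the highest value was 1.00. The 4 males in which it was off were at 0 in 3 cases and at 1.58 in 1, and they were on for each of the other 4 male members. Its difference was 6.04 ± 0.31 (SE; limma, adjusted p = 2.5e-28). ENSRNOG00000051257 had the opposite pattern, at 6.78 to 10.29 in the 40 females (median 9.51) and at 0 to 2.32 in the 41 males (median 1.00). Its male minus female difference was -8.27 ± 0.16 (SE; limma, adjusted p = 9.2e-61).

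The sex difference of a member was not shown to vary with batch. No gene of the table passed the limma interaction test after adjustment, 0% of all genes and 0 of 53 members. At an unadjusted p under 0.05 it was 306 genes, 4 of them members. With a pseudocount of 8 in place of 1, ENSRNOG00000051257 passed (adjusted p = 0.00018).

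Rat batch moved with the level of many members and of most genes, and with the state of fewer of each. In the limma F-test over batches 2, 3, 4 and 6, adjusted for sex, 22 of 53 members passed, against 65.3% of all genes. Fisher's exact test of presence called 13 of 53, against 21.6% of the genes tested. By level the members passed less often than all genes did. By presence their share against that of all genes moved with the on cut: it was 12 of 53 against 6.61% when any value above 0 was on, and 17 of 53 against 54% when on was 7 or more. Without batch 3 it was 13 of 49 against 9.83%. The difference between these shares was not tested.

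ENSRNOG00000027791 and ENSRNOG00000055067 were on in the lower numbered batches. ENSRNOG00000027791 was on in all 15 rats of batch 2 (lowest 5.04, median 7.69, highest 8.57) and in 19 of 22 of batch 3 (0, 7.89 and 9.50). It was at 0 in all 27 rats of batch 4, in the rat of batch 5 and in 15 of the 16 rats of batch 6, and the remaining rat was at 4.09 (limma, adjusted p = 1.9e-26; Fisher's exact test, adjusted p = 3.4e-15). Batches 2 and 4 did not overlap. ENSRNOG00000055067 was on in 14 of 15 rats of batch 2 (3.17, 5.17 and 11.06) and 17 of 22 of batch 3 (0, 6.07 and 10.21). In batch 4 it was on in 1 of 27 rats, whose value was 3.70, and in batch 6 in none of 16, with a highest value of 1.00 (limma, adjusted p = 3.8e-17).

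The other 6 of the 8 members with the smallest p ran the opposite way. ENSRNOG00000060594 was on in 2 of 15, 10 of 22, 25 of 27 and 16 of 16 rats of batches 2, 3, 4 and 6, with medians of 0, 0, 8.79 and 8.93 (limma, adjusted p = 5.8e-14). ENSRNOG00000045680 was on in 6, 11, 27 and 16 rats, with medians of 0, 3.5, 8.91 and 8.80 (limma, adjusted p = 4.1e-12). In batches 4 and 6 its lowest values were 7.55 and 8.19, and its highest value in batch 2 was 7.48, so batch 2 did not overlap with either.

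ENSRNOG00000007219, the member with the highest level, was at 0 in all 15 rats of batch 2. It was on in 10 of 22 rats of batch 3 (highest 12.78), in 22 of 27 of batch 4 (median 11.79) and in 15 of 16 of batch 6 (median 11.79; limma, adjusted p = 7.0e-10). ENSRNOG00000036701 was likewise at 0 in the whole of batch 2 and on in 4 of 22, 19 of 27 and 12 of 16 rats of the others (limma, adjusted p = 1.5e-08). For both genes the on rats of batches 3, 4 and 6 overlapped in level. ENSRNOG00000039783 was on in 4, 5, 24 and 12 rats of batches 2, 3, 4 and 6 (adjusted p = 2.8e-08), and ENSRNOG00000048060 in 2, 12, 23 and 14 (adjusted p = 1.4e-06), both by limma.

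**Figure D3:**
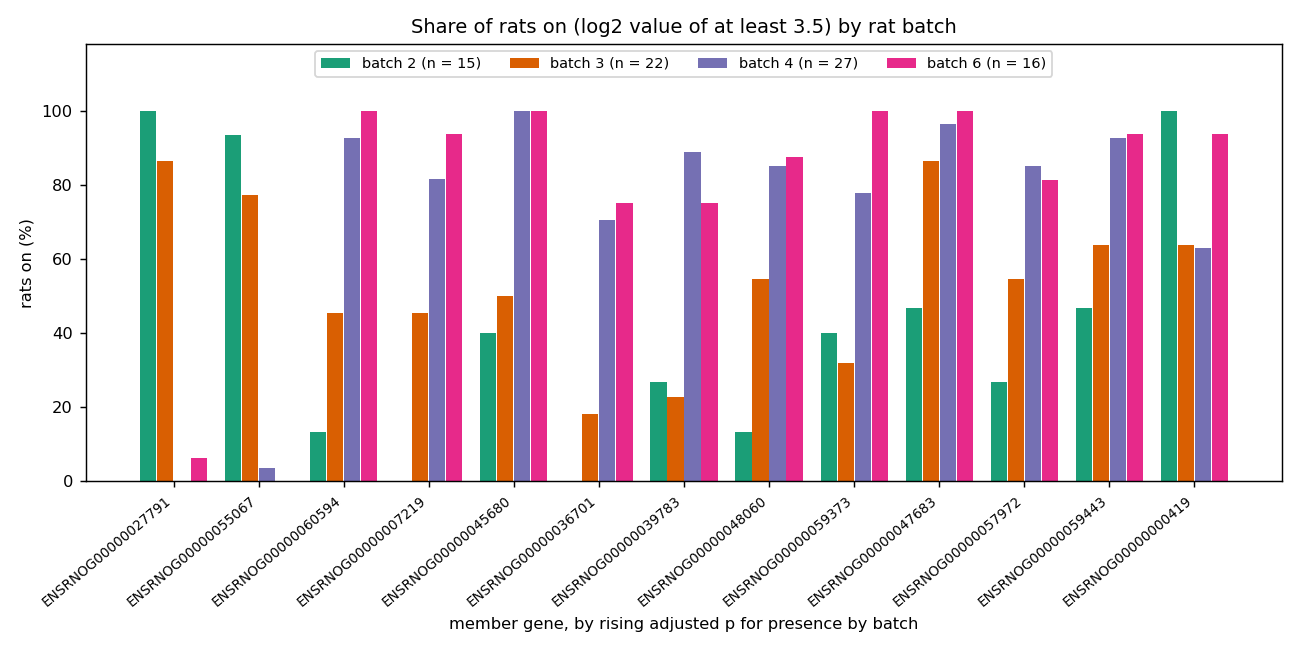
Share of rats on (%) in rat batches 2, 3, 4 and 6 (bars, from 0) for the 13 members called by Fisher's exact test of presence by batch, ordered by rising adjusted p. The leading 2 genes are on in batches 2 and 3 and nearly absent from 4 and 6, and the next 10 are on in a larger share of batches 4 and 6 than of batch 2.

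The state of some of these members also followed column run. ENSRNOG00000027791 was on in 22 of 22 rats of run 1, 12 of 12 of run 2 and 1 of 47 of run 3. Within batch 3 it was on in all 19 rats of runs 1 and 2 (5.83 to 9.50) and at 0 in all 3 rats of run 3. ENSRNOG00000055067 was on in 17 of those 19 rats and in none of the 3. ENSRNOG00000039783 was on in 2 of the 19 and in all 3, at 4.81, 9.75 and 10.19, and ENSRNOG00000045680 in 8 of the 19 and in all 3, at 9.14 to 9.58. Of the other 4 of the 8, ENSRNOG00000060594 was also on in all 3 rats of run 3. Its levels there, 7.69 to 8.70, overlapped those of run 2, with a highest of 8.50. The rest were not parted at run 3 in this way. In runs 1, 2 and 3 of batch 3, ENSRNOG00000060594 was on in 3 of 7, 4 of 12 and 3 of 3 rats, ENSRNOG00000036701 in 2, 0 and 2, ENSRNOG00000007219 in 1, 7 and 2, and ENSRNOG00000048060 in 4, 6 and 2. In the limma fit with column run added, none of the 8 members passed for batch (adjusted p = 0.068 to 0.60), and 2 of 53 members passed, against 35.3% of all genes.

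Runs could be compared inside batch 3, and batches inside run 1 or run 3, with fewer rats. Between runs 1 and 2 of batch 3 (7 and 12 rats), 12 of 53 members passed limma, against 23% of all genes. ENSRNOG00000054945 had a median of 3.70 in run 1 (0 to 4.95) and 7.69 in run 2 (5.32 to 13.11), without overlap (difference 5.29 ± 0.85, SE; limma, adjusted p = 0.0029). ENSRNOG00000050374 was on in 2 of 7 rats in run 1 (median 2.58) and in 12 of 12 in run 2 (8.95 to 9.41; limma, adjusted p = 0.0035). ENSRNOG00000059373 was on in 4 of 7 and 0 of 12 (limma, adjusted p = 0.013). These 3 members were chosen after their values were seen.

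By Fisher's exact test of presence over the 3 runs of batch 3, 0 of 52 members passed, against 0% of the 1928 genes tested. At an unadjusted p under 0.05 it was 199 genes, 13 of them members, with ENSRNOG00000059373 and ENSRNOG00000027791 lowest (adjusted p = 0.12 for both). Between batches 2 and 3 within run 1, 0 of 53 members passed limma, against 0% of all genes, and at an unadjusted p under 0.05 it was 1507 genes, 8 of them members. Between batches 4 and 6 within run 3, 0 members passed, against 10% of all genes, and at an unadjusted p under 0.05 it was 4886 genes, 3 of them members.

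Few pairs of members shared their state. Each of the 1378 pairs of members was described by Cohen's kappa, the agreement of on and off states beyond that given by the 2 shares of rats on, where 1 is the same state in every rat. Pairs were called joined at a kappa of at least 0.8 and opposed at -0.8 or less. The joined pairs numbered 12 and the opposed pairs 5. They left 44 members in no group. Among the 47 members without a sex difference there were 1081 pairs, of which 86.3% had a kappa between -0.2 and 0.2 and 10 a kappa of at least 0.6 in size.

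The joined pairs formed 3 groups. The largest was the 5 male members, of which ENSRNOG00000057231, ENSRNOG00000060048, ENSRNOG00000060496 and ENSRNOG00000060617 had the same state in all 81 rats, and ENSRNOG00000060437 the same state as these in 77 (kappa 0.90). All 5 opposed pairs were ENSRNOG00000051257 with a male member. It was in the same state as ENSRNOG00000060437 in 4 rats, both off, and as each of the other 4 in 0 rats. ENSRNOG00000048456 and ENSRNOG00000048523 had the same value in every rat, on in 68 of 81 (median 8.12 when on), so the table cannot tell this pair apart.

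ENSRNOG00000027791 and ENSRNOG00000055067 shared a state in 76 of 81 rats (kappa 0.87), both on in 31 and both off in 45. Inside batches 2, 4 and 6 they shared a state in 14 of 15, 26 of 27 and 15 of 16 rats, but 1 gene or both hardly varied there, and kappa was 0. In batch 3, where both varied, kappa was 0.70 (20 of 22 rats). Inside runs 1 and 2 it was 0 and inside run 3 it was -0.02, where again 1 gene or both hardly varied. ENSRNOG00000027791 had a kappa of -0.62, -0.63 and -0.63 with ENSRNOG00000039783, ENSRNOG00000036701 and ENSRNOG00000060594, and ENSRNOG00000055067 had -0.66 with ENSRNOG00000060594. In batch 3 these values were -0.30, -0.18, -0.28 and -0.47. In run 3 they were at most 0.02 in size, where ENSRNOG00000027791 and ENSRNOG00000055067 were each on in 1 of 47 rats. Some positive pairs kept part of their agreement. ENSRNOG00000007219 and ENSRNOG00000036701 had a kappa of 0.61 over all rats and 0.23, 0.50 and 0.33 in batches 3, 4 and 6, with 0.65, 0 and 0.50 in runs 1, 2 and 3. ENSRNOG00000048060 and ENSRNOG00000060594 had 0.62 over all rats, 0.42, 0.46, 0.26 and 0 in batches 2, 3, 4 and 6, and 0.64, 0.33 and 0.17 in the runs. ENSRNOG00000045680 and ENSRNOG00000060594 had 0.61 over all rats, 0.38, 0.36 and 0 in batches 2, 3 and 4, and 0.52, -0.13 and 0 in the runs. Each kappa of 0 in these pairs fell where 1 gene was on in all rats or in none, so it could not show agreement. The last pair shared a state in 25 of 27 rats of batch 4 and in 45 of 47 of run 3.

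**Figure D4:**
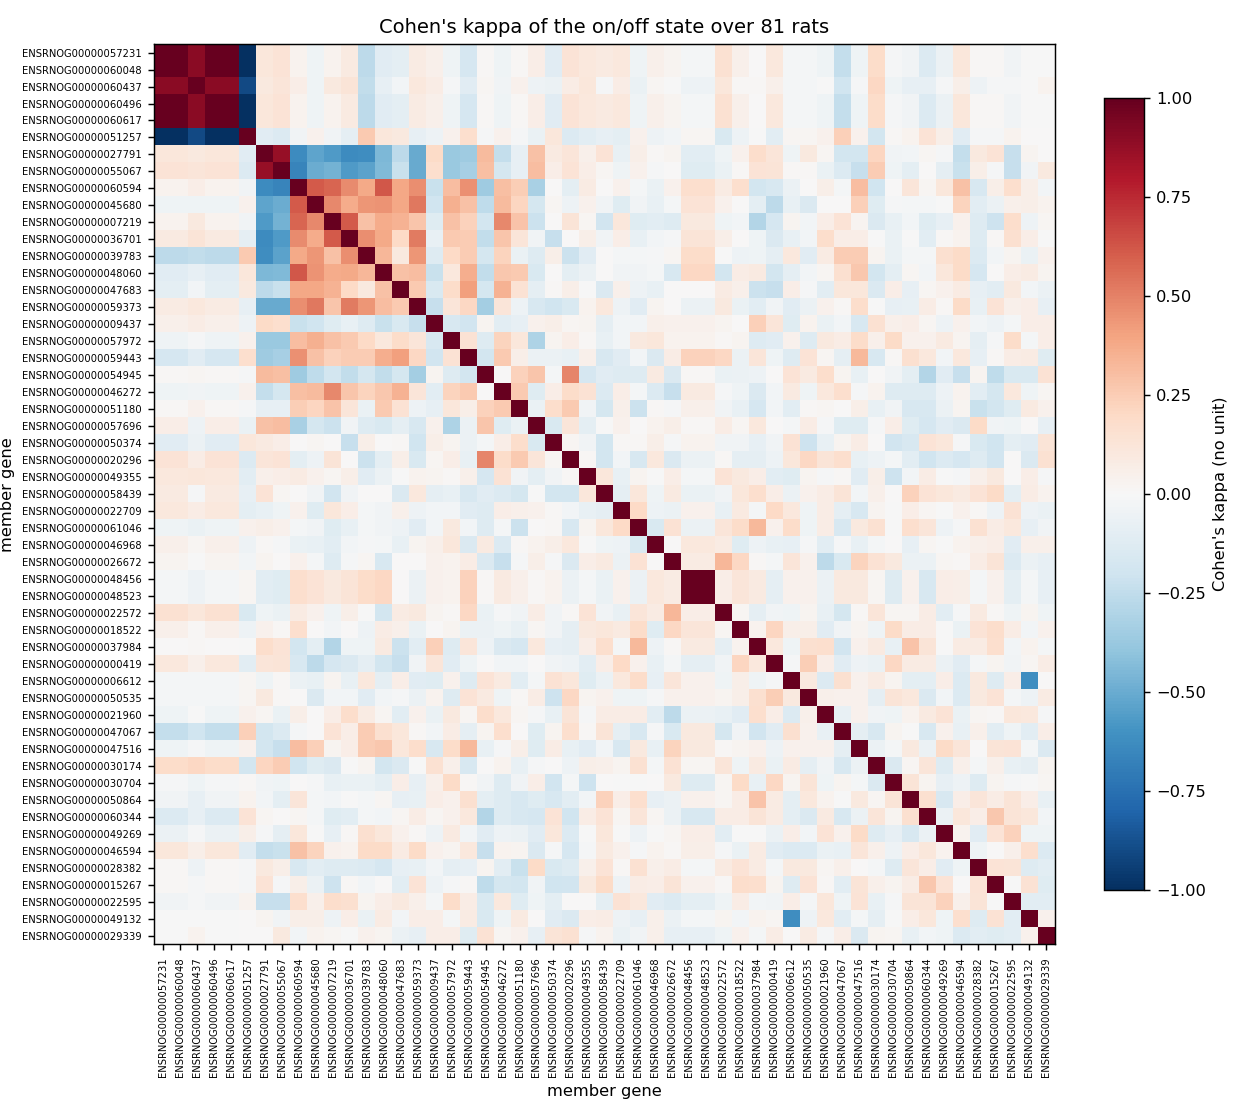
Cohen's kappa of the on/off state over 81 rats for every pair of the 53 members (red, same state; blue, opposite state), in the order of the plot of levels by rat. The block at the top left is the 6 members that differed between the sexes, the paler block after it holds members that moved with rat batch, and the 2 isolated blue cells are ENSRNOG00000006612 with ENSRNOG00000049132.

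A single further pair excluded each other rat by rat. ENSRNOG00000006612 was on in 60 rats and ENSRNOG00000049132 in 22, and they were in the same state in 1 of 81 rats, against 31.6 given by their shares. Because their shares differ, kappa was only -0.62, and the pair was added after its values were seen. When on, ENSRNOG00000006612 was at 6.27 to 8.01 (median 7.51) and ENSRNOG00000049132 at 6.64 to 7.75 (median 7.47). The exception was a female of batch 4, with 6.27 and 6.64. The log2 of their summed count was 6.73 to 8.01 in all rats, with an SD of 0.24, against 3.30 and 3.32 for each gene alone. Exclusion held in 15 of 15, 22 of 22 and 16 of 16 rats of batches 2, 3 and 6.

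The summed level of this pair did not depend on which gene was on: its median was 7.51 where ENSRNOG00000006612 was on and 7.5 where it was off. Their levels differed between runs 1 and 2 of batch 3 (limma, adjusted p = 0.013 and 0.017). ENSRNOG00000006612 was on there in 2 of 7 and 11 of 12 rats, and ENSRNOG00000049132 in 5 of 7 and 1 of 12. By Fisher's exact test of presence over the runs of batch 3, neither passed (adjusted p = 0.29 for both). Because the genes excluded each other, their results are not independent. With column run as a covariate these genes were the 2 of 53 members that passed for batch (limma, adjusted p = 0.023 and 0.041), where 35.3% of all genes passed.

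Partners were then looked for among all genes of the table, after the values were seen. A partner was a gene whose summed count with the member had a log2 SD of at most 0.3 and at most 0.5 times that of either gene, with a correlation of the 2 counts of -0.8 or less over 81 rats. Of the 53 members, 10 had a partner (18.9%), against 21.6% of all genes, so at these cuts a partner was not more frequent among members. Each of the 10 had 1 partner, while genes of the table with a partner had a median of 58. Only 340 genes (8.98% of those with a partner) had 1, so the 2 shares count largely unlike patterns. The difference between the shares was not tested. At a correlation of -0.9 or less it was 6 members (11.3%) and 6.04% of all genes.

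ENSRNOG00000050864 and its partner ENSRNOG00000046990 traded counts. They are described in 3 steps of the member, with the on rats cut at a gap chosen after the values were seen. The partner overlapped between the 2 upper steps, and the member held 17.2% to 100% of the summed count in its 43 on rats. Where the member was at 0 (38 rats), the partner was at 9.42 to 9.94 (median 9.78). In 18 rats the member was at 7.29 to 8.68 and the partner at 8.49 to 9.63 (median 9.24). In the other 25 rats the member was at 9.10 to 10.03 and the partner at 0 to 8.78 (median 6.92). The summed level had an SD of 0.15 over all rats (0.05 to 0.15 within batches), against 4.56 and 2.41 for the genes. All 3 steps occurred in each of batches 2, 3, 4 and 6, in 7, 13, 15 and 3 rats for the lowest and 6, 4, 7 and 7 for the highest.

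ENSRNOG00000015267 stood in the same relation to ENSRNOG00000060047, again with steps set after the values were seen. It was at 0 in 50 rats, where the partner was at 9.94 to 10.32. In 24 rats it was at 6.43 to 8.54 with the partner at 9.36 to 10.16, and in 7 rats it was at 9.26 to 10.21 with the partner at 0 to 9.14. The rat with the highest value of the member had the partner at 0. The SD of the summed level was 0.10, against 4.01 and 1.33 for the genes.

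ENSRNOG00000050374 and ENSRNOG00000049895 kept a nearly fixed ratio instead in most rats where the member was at 7 or more. The member was at 7 or more in 37 rats, and in 36 of these it held 73.3% to 76.9% of the summed count of both genes. The remaining rat, a male of batch 6, had 35.9%. Where the member was off (39 rats), the partner was at 9.49 to 10.22, and where it was at 7 or more, at 7.43 to 9.50 (median 7.85). The male member ENSRNOG00000060048 had such a partner too. ENSRNOG00000060793 was at 11.69 to 12.12 in females and at 11.12 to 11.48 in males, without overlap, and the summed level had an SD of 0.10. The male member held 31.5% to 40.9% of the summed count in males.

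**Figure D5:**
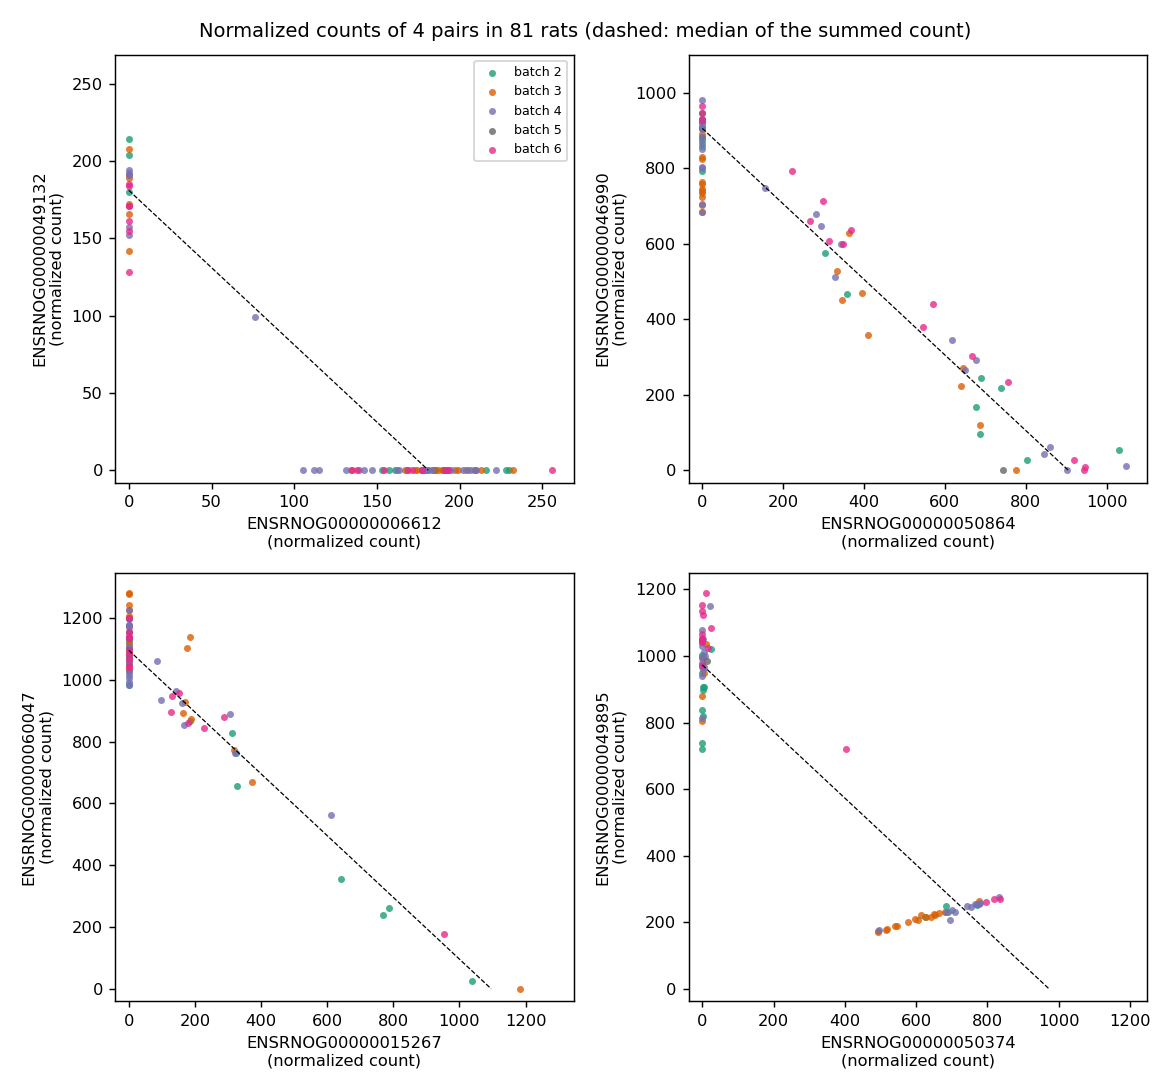
Normalized counts of 4 pairs of genes in 81 rats (1 point a rat, coloured by rat batch), with the member on the horizontal axis and its partner on the vertical axis; the dashed line marks the median of the summed count. Points of ENSRNOG00000006612 lie on the 2 axes except for 1 rat, those of ENSRNOG00000050864 and ENSRNOG00000015267 spread along the line, and those of ENSRNOG00000050374 form a cluster at or near 0 and a streak at about 75% of the sum with 1 rat between.

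The other 4 members with a partner had wider sums or weaker correlations. For ENSRNOG00000022709, ENSRNOG00000028382, ENSRNOG00000045680 and ENSRNOG00000058439 the SD of the summed level was 0.28, 0.20, 0.27 and 0.17, and the correlation of counts was -0.82, -0.85, -0.81 and -0.86. Many sharp members had no partner: ENSRNOG00000007219, ENSRNOG00000022595, ENSRNOG00000030704, ENSRNOG00000036701, ENSRNOG00000037984, ENSRNOG00000049269 and ENSRNOG00000050535. ENSRNOG00000049269, on in 40 of 81 rats, moved together with ENSRNOG00000028543, which is no member. That gene was at 8.04 to 13.47 (median 12.01) where the member was on and at 3.46 to 6.57 (median 5.13) where it was off, with no overlap between the 40 and 41 rats. This gene too was picked after its values were seen.

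Seen by rat, 46 members were left after the 6 sex members and 1 of the pair with the same row were set aside. Over these 46, all 81 rats had different sets of genes on. The rule picks genes that vary between rats, so distinct sets are a consequence of the selection. Other lists of variable genes were not compared. Any pair of rats differed at 5 to 33 of the 46 (median 19), at a median of 16 for rats of the same run and 21.5 for rats of different runs. A rat had 19 to 43 of the 53 members on (median 33). The 9 rats with over 1000 genes at 0 had 19 to 34 on (median 28), and the other 72 had 25 to 43 (median 33). The part of this shortfall in the states of single members was not tested. Of the 53 members, 41 were both on and off in each of batches 2, 3, 4 and 6, and 49 were on in at least 1 rat of each.

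Genes just past the limits of the rule were picked by its own counts of rats, so their closeness to members on those counts was fixed. Members with the fewest rats at 0 were ENSRNOG00000009437, ENSRNOG00000022709 and ENSRNOG00000057231, with 8 each. Outside it, ENSRNOG00000049693 and ENSRNOG00000031061 had 7 rats at 0 and 43 and 32 at 7 or more, and ENSRNOG00000049236 had 6 and 74. On the other count, ENSRNOG00000020296 was inside with 8 rats at 7 or more, and ENSRNOG00000049192, ENSRNOG00000037709 and ENSRNOG00000011124 were outside with 7 each. On and off states were compared for the 1989 non-members with at least 8 rats on and 8 off. This leaves out genes such as ENSRNOG00000028543, which was at 3.46 or more in every rat. Among those compared, the state most like that of a member was that of ENSRNOG00000061352. It was in the same state as ENSRNOG00000054945 in 74 of 81 rats (kappa 0.82). It was followed by ENSRNOG00000054085 (0.77, with ENSRNOG00000027791), ENSRNOG00000025046 (0.76, with ENSRNOG00000054945), ENSRNOG00000037364 (-0.75, with ENSRNOG00000027791) and ENSRNOG00000015854 (0.73, with ENSRNOG00000054945). In this order, these 5 genes were at 0 in 5, 2, 2, 20 and 12 rats, and each was at 7 or more in at most 1 rat. ENSRNOG00000061352 had a median of 4.95 where ENSRNOG00000054945 was on, and reached 4.64 where it was off.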

How the data were processed

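In the study, the authors trimmed single-end reads with cutadapt and used RSEM with the Ensembl rat transcripts (Rnor_6.0 in the submitters' processing notes) to estimate counts. They applied an upper quartile adjustment with DESeq2, filtered libraries and genes with few reads, and took log2 after adding 1. Versions of these tools are not given in the sources used here. The deposited log2 values, when undone, gave whole numbers within a relative departure of 3.5e-06, called normalized counts here. Upper quartile scaling aligns rats at intermediate levels, and RSEM shares reads out among similar transcripts, so values of near-identical gene copies are uncertain. No 2 columns were identical. Depth was taken from the table alone, for the 62 rats whose scaling factor was recovered, and was not analysed here for the other rats. Intervals from counts were not computed.

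Rats were grouped by the rat batch and sex in the labels, 87 in all, of which 81 had a column and all columns were matched by title. Replicate numbers only name rats. For the 2 rats with labels exchanged by the authors, the original names were used to order the runs. The deposited values of the 80 rats in batches 2, 3, 4 and 6 were tested with limma 3.58.1 (lmFit, eBayes with trend) in R 4.3.3, two-sided or by F-test, over all 17512 genes, threshold 0.05 after Benjamini-Hochberg adjustment. A difference is on the log2(normalized count + 1) scale and understates changes of low genes. On or off values are far from normal, so presence was also tested by Fisher's exact test, two-sided, in genes with at least 8 rats on and 8 off (within batch 3, also at least 3 of each there). Both tests were checked on simulated data. The limma check used normally distributed values, so it cannot show how limma behaves on on or off values. Other steps used Python 3.11.15 with scipy 1.17.1, pandas 2.3.3, numpy 2.4.6 and, for plots, matplotlib 3.10.9.

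The members, lists and tests were chosen with earlier results of these data known. Named were the members of joined or opposed pairs, the 8 with the smallest adjusted p for batch, those that differed by sex, the 5 with a share of rats on closest to 50% and the 5 with the highest level when on, the 5 non-members most alike in state and 3 genes outside each limit of the rule. Others were chosen after their values were seen. The 5 shares closest to 50% were tied among the sex members and ENSRNOG00000049269. Symbol-based lists (markers, gene families, positions) were not run, because no identifier matched. Alternatives tried were other cuts of the rule and of the on state, a pseudocount of 8, a mean log2 filter of 3, a rank-based transformation, covariates (genes at 0, column run, 20 expression components), leaving out a batch, and leaving out the 9 rats with over 1000 genes at 0.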

Additional observations from a re-analysis of the deposited data

Results flagged for a closer look

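Among the members that differed between the sexes, 24 sets of 4 to 10 rats of 1 sex, 1 batch and 1 gene were examined for a rat far from the others, and 2 rats stood out. Chance flags about 1 in 20 such sets, or 1.2 here. In males of batch 6, male rat 3 had ENSRNOG00000060437 at 1.58, while the other 7 males were at 6.69 to 7.34. In females of batch 2, female rat 6 had ENSRNOG00000060617 at 1.00, while the other 3 females were at 0. That value lies within the range of this gene over all 40 females (0 to 2.00). With the other 3 at exactly 0, any value above 0 would have been flagged, so the rate of 1 in 20 does not apply to this set.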

How the results depend on the processing

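The number of genes that met the rule depended on its cuts. It was 100 with a cut of 6 for high values and 34 with 8, and 90 with 4 rats on each side and 29 with 16. With a value of at most 1 in place of 0 it was 55, with 1 gene of each set of the same row 52, and without the 9 rats with over 1000 genes at 0, chosen after seeing the data, 44. For batch, limma called 22 members, and 18 to 25 under the other pseudocount, filter, transformation, covariate of genes at 0 and omissions, beside 49.9% to 73.2% of all genes. It called 2 with column run as a covariate, beside 35.3% of all genes, and 1 with 20 expression components, ENSRNOG00000027791 (adjusted p = 2.6e-08), beside 0.114%. With the components the other 7 of the 8 leading batch members had an adjusted p of 0.19 to 0.99. Members called for sex numbered 6 in all alternatives but the components, with 5, where ENSRNOG00000060437 was lost (adjusted p = 0.94), and no direction turned. The interaction called 0 members and 1 with a pseudocount of 8. Presence by batch called 12 to 17 members, while the share of all genes called ran from 6.61% (any value above 0 on) to 54% (on at 7 or more), and presence by sex called 5 or 6 beside 0.362% to 0.438%. Joined pairs, 12 by default, numbered 1 when any value above 0 was on and 7 when on was 7 or more; opposed pairs, 5 by default, then numbered 0 and 4, and ENSRNOG00000051257 was at exactly 0 in 15 of 41 males only. Of the opposed pairs 4 had a summed level with an SD at most 0.5 times that of either gene, and with any gene as a partner it was 9. Depth limits low states most: 10.3 normalized counts can be few reads in shallow rats. No paired analysis was possible because numbers given to rats in accession order only name them. Lists that need gene symbols were not run.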
